A study of Homo sapiens with 24 samples.

Results

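The nuclear genes of the mitochondrial respiratory chain were followed in U87 MG cells, a human glioblastoma line, after proton therapy (PT) with or without the SRC inhibitor Si306. The genes were chosen by name: those of complex I (NDUFA, NDUFB, NDUFC, NDUFS and NDUFV), complex II (SDHA, SDHB, SDHC and SDHD), complex III (UQCR and CYC1), complex IV (COX4 to COX8) and complex V (ATP5). This gave 85 of the 30982 gene names on the array, with 40 names in complex I, 4 in complex II, 8 in complex III, 17 in complex IV and 16 in complex V. They were represented by 120 of 41000 probes. Of the 85 names, 84 had a probe bright enough to be tested, and COX7A1 had none.

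RNA was compared on 2-colour arrays 24 h after irradiation in 4 configurations. U87 2 Gy and U87 10 Gy were set against untreated U87 cells. The other configurations, U87 Si306 + 2 Gy and its 10 Gy counterpart U87 Si306 + 10 Gy, received 10 µM Si306 as well and had cells given PT alone at the same dose as control. The control RNA of the last pair of configurations was therefore irradiated too, so their ratios show the addition of Si306 and not irradiation. The treated RNA always carried the red dye Cy5 and the control RNA the green dye Cy3. A probe that takes up a dye unequally cannot be told apart from a treatment effect within a configuration, whereas a constant bias of this kind cancels in a difference between doses.

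The authors deposited 24 scanner tables, with labels that give 6 biological replicates to a configuration. By the headers these were 8 arrays with 3 scans of each. Scans of an array were averaged, which left n = 2 arrays for each configuration. The 4 arrays of PT alone lay on 1 slide and the 4 arrays with Si306 on another, so slide and Si306 cannot be told apart. An array was given the configuration that most of its scans are labelled with. By this rule a scan labelled U87 2 Gy lay on a 10 Gy array and a scan labelled U87 10 Gy on a 2 Gy array. Both of these disputed scans were left out, with 22 scans used, and whether their labels or their headers are wrong is not known. Nothing states that the 2 arrays of a configuration came from separate cultures, so p-values measure the spread between arrays, which may be technical. Of 9 markers listed for U87, 5 (VIM, NES, CD44, GFAP and TNC) were well above background in Cy3 on all 8 arrays, while S100B was on none. CDH1, PTPRC, AIF1, SYP and CDH5, markers of epithelium, leukocytes, microglia, neurons and endothelium, were above it on none. Over the whole lists, 1 of 4 markers of microglia or leukocytes (CD14), 1 of 3 of neurons (MAP2), 0 of 3 of endothelium and 2 of 3 of epithelium (KRT8 and KRT18) were above it on all 8 arrays, and their part in the results was not tested.

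The respiratory chain passes electrons from NADH (complex I) and succinate (complex II) through ubiquinone to complex III, cytochrome c and complex IV, which reduces oxygen. Complexes I, III and IV pump protons across the inner mitochondrial membrane, and complex V uses their return to make ATP. Most subunits are encoded in the nucleus, and many of their promoters are textbook targets of NRF1 and of the ETS factor GABP. In complex II all subunits are nuclear, and it is also an enzyme of the citric acid cycle. Some subunits have tissue isoforms, such as COX6A2, the form of COX6A known from heart and skeletal muscle. The genome of the mitochondrion itself was not covered, as none of its genes was found by name among the probes.

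The regions before the start site of the genes on which the results turn are printed first, so that the promoters of complex II subunits can be set beside those of COX6A2 and NDUFA5. They were taken from RefSeq (GRCh38.p14), are the 250 bases before the annotated start, and run 5′ to 3′ on the strand of the gene. Capitals mark the NRF1 motif GCGCATGCG and the ETS motif CCGGAAGT on either strand, and the NRF1 and ETS matches do not overlap each other in these sequences. In SDHD the NRF1 motif was found on both strands, as a pair of matches shifted by 1 base. SDHC had no entry in the table. The regions lie at chr5:218070-218319 (plus strand, SDHA), chr1:17054033-17054282 (minus strand, SDHB), chr11:112086623-112086872 (plus strand, SDHD), chr16:31428361-31428610 (minus strand, COX6A2) and chr7:123557819-123558068 (minus strand, NDUFA5).
SDHA: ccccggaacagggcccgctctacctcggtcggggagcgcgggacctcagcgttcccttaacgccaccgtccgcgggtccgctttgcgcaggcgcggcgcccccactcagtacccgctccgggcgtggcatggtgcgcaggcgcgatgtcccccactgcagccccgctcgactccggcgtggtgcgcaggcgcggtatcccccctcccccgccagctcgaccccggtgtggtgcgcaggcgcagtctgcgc
SDHB: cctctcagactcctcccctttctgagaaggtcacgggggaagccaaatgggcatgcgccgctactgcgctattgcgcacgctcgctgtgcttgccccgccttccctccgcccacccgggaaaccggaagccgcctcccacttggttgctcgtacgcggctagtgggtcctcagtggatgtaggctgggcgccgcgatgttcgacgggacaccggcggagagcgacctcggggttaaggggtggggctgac
SDHD: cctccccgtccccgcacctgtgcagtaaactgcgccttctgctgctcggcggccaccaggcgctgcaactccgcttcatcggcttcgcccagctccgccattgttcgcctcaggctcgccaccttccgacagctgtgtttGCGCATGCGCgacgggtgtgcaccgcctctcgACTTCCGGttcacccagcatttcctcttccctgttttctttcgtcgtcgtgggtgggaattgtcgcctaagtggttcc
COX6A2: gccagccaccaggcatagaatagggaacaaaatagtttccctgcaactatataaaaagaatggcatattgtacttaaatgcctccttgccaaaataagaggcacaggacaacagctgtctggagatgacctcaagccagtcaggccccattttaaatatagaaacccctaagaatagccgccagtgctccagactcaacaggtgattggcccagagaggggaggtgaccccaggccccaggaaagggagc
NDUFA5: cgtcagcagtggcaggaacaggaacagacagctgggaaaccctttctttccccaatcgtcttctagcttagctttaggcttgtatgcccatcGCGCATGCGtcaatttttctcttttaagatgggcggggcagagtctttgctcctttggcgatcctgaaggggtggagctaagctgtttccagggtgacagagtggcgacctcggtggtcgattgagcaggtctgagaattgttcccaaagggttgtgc
SDHD held both motifs. NDUFA5 had 3 windows in the table, for different start sites, and the 1 that held the NRF1 motif is the one printed, chosen for that match. The exact letters of either motif were not found in the windows of SDHA, SDHB and COX6A2. Of the 84 tested members, 69 had a promoter window of 300 bases in the table, and 11 of them (15.9%) held the NRF1 motif in any of their windows, 11 (15.9%) the ETS motif and 20 (29.0%) at least 1 of them. Over all 27305 genes of the table these shares were 2.34%, 4.95% and 7.01%. Counted by window, since 10 of the 69 members and 5191 of all genes had several, the shares were 13.3%, 13.3% and 25.3% of 83 member windows and 1.92%, 4.14% and 5.85% of 35116 windows in all. By complex, 7 of 35 genes of complex I held a motif, 1 of 3 of complex II, 3 of 6 of complex III, 3 of 14 of complex IV and 6 of 11 of complex V. A match is a description of the letters only.

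After loess, and with the brightest probe of each gene, 1 gene alone of the respiratory chain moved by 2-fold or more. A gene was called up or down regulated if its adjusted p was under 0.05 (limma over all tested names), and changes are log2 ratios of Cy5 to Cy3, in which 1 is 2-fold. At 2 Gy, 21 of the 84 members were up regulated and 33 down regulated, with a median of -0.05. Over all names tested, 32.0% were up and 24.9% down regulated, with a median of 0.02. At 10 Gy, 31 members were up and 24 down regulated with a median of 0.04, beside 31.0% up and 26.2% down over all names, whose median was 0.01. With Si306 + 2 Gy, 31 members were up and 26 down regulated with a median of 0.02, beside 38.5% and 27.8% over all names, whose median was 0.04. With Si306 + 10 Gy, 31 members were up and 31 down regulated with a median of -0.01, beside 35.1% and 27.1% over all names, whose median was 0.03. Members were thus called in both directions in each configuration after loess. Loess levels the ratios at each brightness within a scan, so such a balance is partly set by the normalization. The medians under median centring are given below. Changes of 2-fold or more were found for 1 member at 2 Gy and 1 at 10 Gy, both COX6A2, and for 0 members with Si306 at either dose. Further probes of SDHA (1.06 at 2 Gy and 10 Gy) and COX6A1 (1.23 with Si306 + 10 Gy) passed 2-fold as well. Such changes made up 0.715% of all names at 2 Gy, 0.958% at 10 Gy, 0.724% with Si306 + 2 Gy and 0.370% with Si306 + 10 Gy.

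Members were bright on these arrays, with a median log2 intensity of 13.53 against 8.16 over all tested names, and none of their probes was saturated. With median centring of each scan in place of loess, the median of all names moved to 0.27, 0.22, 0.43 and 0.26 in the 4 configurations, and that of the members to 0.62, 0.59, 1.14 and 0.74. Under median centring 11, 3, 56 and 15 members changed 2-fold. Directions given here are those after loess, and turns under median centring were looked for in the calls of the named members alone, not in the other members or in the genes that serve the chain. For a few members 1 of the 2 arrays gave no usable spot in a configuration, which was the case for 15 of the values, and these rest on the other array.

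**Figure D1:**
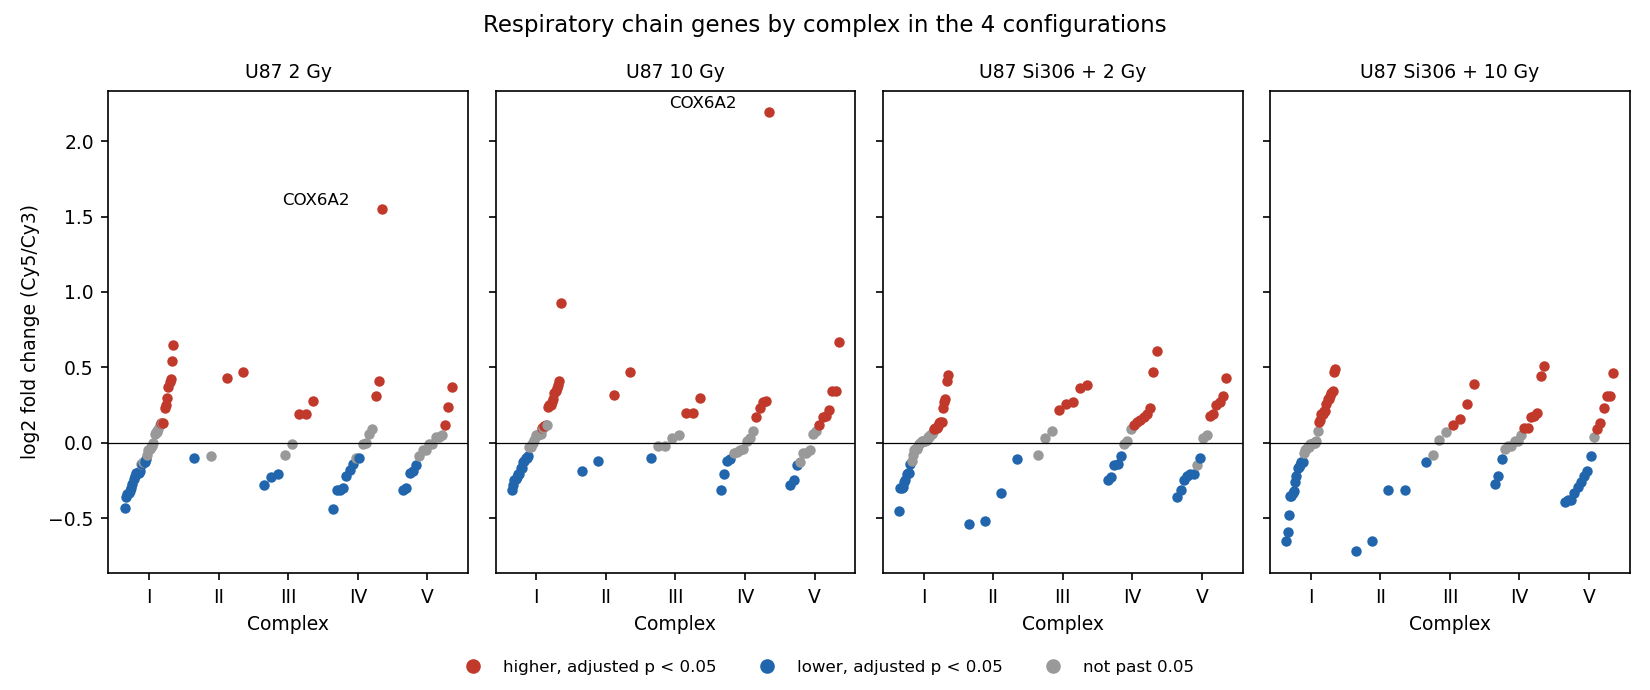
Each point is 1 of 84 respiratory chain genes, placed by complex (horizontal axis) and by its log2 ratio of Cy5 to Cy3 (vertical axis) in 1 of 4 configurations, with colour for the call at adjusted p under 0.05. Up and down regulated genes occurred together in each complex except complex III with Si306 + 2 Gy (5 up, 0 down) and complex II with Si306, where all 4 genes lay between -0.72 and -0.11, after loess (with median centring, relative to all names, SDHA, SDHB and SDHD with Si306 + 2 Gy and SDHB with Si306 + 10 Gy lay above 0).

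Complex II was the one complex whose members were all called in 1 direction in a configuration. With Si306 its 4 genes were down regulated at both doses, whereas after PT alone SDHA and SDHC were up regulated. The median was -0.43 with Si306 + 2 Gy and -0.48 with Si306 + 10 Gy. After PT alone it was 0.17 at 2 Gy (2 up, 1 down regulated) and 0.10 at 10 Gy (2 up, 2 down regulated). With median centring, and relative to the shift of all names, SDHA (0.09), SDHB (0.41) and SDHD (0.01) turned with Si306 + 2 Gy and SDHB (0.04) with Si306 + 10 Gy, while SDHC stayed negative at both doses. After PT alone the falls of SDHD (0.23 at 2 Gy and 0.16 at 10 Gy) and of SDHB at 10 Gy (0.13) turned too.

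SDHA, the flavoprotein that oxidizes succinate, had log2 ratios of 0.47 and 0.39 on the 2 arrays at 2 Gy and of 0.45 and 0.48 at 10 Gy. With Si306 its arrays read -0.32 and -0.33 at 2 Gy and -0.33 and -0.28 at 10 Gy. The ratios of PT alone and those with Si306 have different control RNA and slides, so no difference between them is given. The changes were 0.43 ± 0.03 (SE, n = 2; adjusted p = 1.51e-06), 0.47 ± 0.03 (6.77e-07), -0.33 ± 0.03 (8.29e-06) and -0.31 ± 0.03 (1.69e-05) for 2 Gy and 10 Gy of PT alone and then for the same doses with Si306. A further SDHA probe, over another part of the transcript, gave 1.06 at both doses of PT and -0.37 and -0.45 with Si306.

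SDHC, a membrane anchor, read 0.46 and 0.49 at 2 Gy, 0.38 and 0.27 at 10 Gy, -0.53 and -0.52 with Si306 + 2 Gy and -0.65 on both arrays with Si306 + 10 Gy. It was thus 1.39-fold and 1.25-fold up regulated by PT and 1.44-fold and 1.57-fold down regulated when Si306 was added. Adjusted p was 1.02e-06, 1.44e-05, 3.37e-07 and 1.1e-07.

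SDHD, the other membrane anchor, showed the largest fall of all tested members with Si306. Its arrays read -0.59 and -0.48 with Si306 + 2 Gy and -0.71 and -0.73 with Si306 + 10 Gy, with changes of -0.54 ± 0.03 (adjusted p = 2.76e-07) and -0.72 ± 0.03 (5.43e-08). The fall was larger at the higher dose by 0.19 ± 0.05 (adjusted p = 0.0215). After PT alone it read -0.12 and -0.08 at 2 Gy and -0.12 and -0.13 at 10 Gy, changes of -0.10 and -0.12 that passed the threshold narrowly (0.0303 and 0.0107) and did not pass it when an array of the same configuration was left out.

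SDHB, the iron-sulfur subunit, had the smallest change of the 4 with Si306 + 2 Gy, where it read -0.14 and -0.09 (-0.11 ± 0.03, adjusted p = 0.0138). With Si306 + 10 Gy it read -0.33 and -0.29 (-0.31 ± 0.03, 1.55e-05), a difference of -0.20 ± 0.05 between the doses (0.0141). After PT alone it read -0.12 and -0.05 at 2 Gy, which did not pass the threshold (0.0535), and -0.21 and -0.16 at 10 Gy (0.000743). SDHB and SDHD were negative in every configuration, so a part of their values cannot be told apart from a dye bias of their probes. A constant bias of this kind cancels in their differences between the doses.

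**Figure D2:**
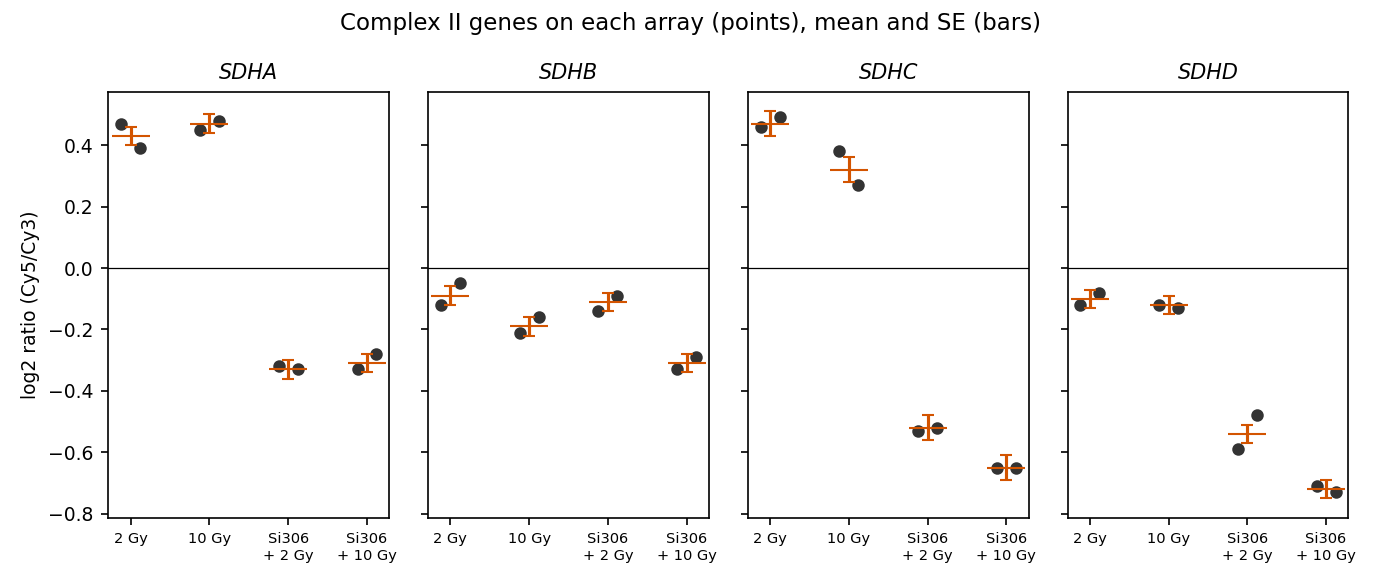
The log2 ratio of Cy5 to Cy3 (vertical axis) of the 4 complex II genes on each of the 2 arrays of a configuration (points), with mean and SE (bars). All 16 array values with Si306 lie below 0, from -0.73 to -0.09, while SDHA and SDHC lie between 0.27 and 0.49 after PT alone (after loess; with median centring 3 of the 4 genes turn with Si306 + 2 Gy).

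Several members had more than 1 tested probe (30 of 84), so that their values could be set beside each other. The 4 SDHD probes all lay within 219 bases of chromosome 11 (hg17, 111470917 to 111471135), so they are not independent measurements. They gave -0.54, -0.59, -0.31 and -0.58 with Si306 + 2 Gy and -0.72, -0.84, -0.53 and -0.77 with Si306 + 10 Gy. The probes of SDHA and SDHD had the same sign as each other with Si306, whereas those of NDUFC2 and NDUFA5 did not. The first 30 of the 60 bases of each probe are printed for SDHA, NDUFC2, NDUFA5 and COX6A2 and for SDHD probes 1 to 3, to show where the probes of a gene lie. SDHD probe 4 overlaps probe 1. Probe 1 is the brighter one and stands for the gene.
COX6A2 probe, chr16:31346551-31346610 (hg17, minus strand): tacgaacacccctgaggccccggacgcccc
SDHA probe 1, chr5:304151-304210 (plus strand): gcaagaaggttgtgggaaaatcagcaagct
SDHA probe 2, chr5:288411-289558 (plus strand, with an intron between its parts): tgcattataacatgggcggcattcccacca
SDHD probe 1, chr11:111470978-111471037 (plus strand): aataaggaagaaataacagataagtccatt
SDHD probe 2, chr11:111470917-111470976 (plus strand): catactttgaagaattgatgtatgcctctt
SDHD probe 3, chr11:111471076-111471135 (plus strand): gaggaattatatctaagttgtgagactgag
NDUFC2 probe 1, chr11:77458588-77458647 (minus strand): acctgctgtttctgaatttgatggaacatg
NDUFC2 probe 2, chr11:77457083-77457142 (minus strand): aaatcaaatgatttctgtctctattttctt
NDUFA5 probe 1, chr7:122775120-122775179 (minus strand): taaaagtggagtcactaaatagtttgcagt
NDUFA5 probe 2, chr7:122779654-122784506 (minus strand, with an intron between its parts): ttacaaatgagaagctggctatggttaaag

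**Figure D3:**
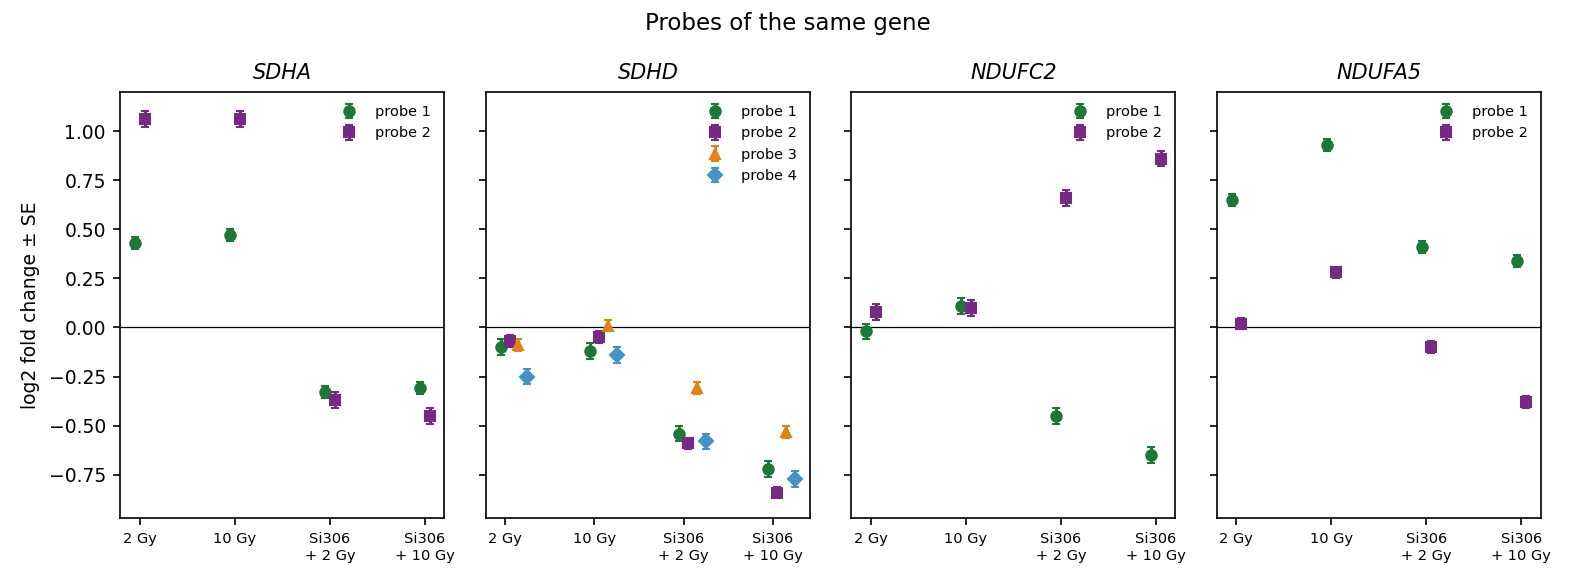
The log2 fold change with its SE (vertical axis) of each probe of SDHA, SDHD, NDUFC2 and NDUFA5 in the 4 configurations (horizontal axis), where probe 1 stands for the gene. With Si306 the probes of SDHA and SDHD lie below 0, from -0.84 to -0.31, while the NDUFC2 probes lie apart at -0.65 and 0.86 with Si306 + 10 Gy (after loess; with median centring, relative to all names, SDHA and SDHD turn with Si306 + 2 Gy, to 0.09 and 0.01).

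Complex I, which takes electrons from NADH, was called in both directions in every configuration after loess, with the same limit as for all members. Of its 40 genes, 10 were up and 16 down regulated at 2 Gy, 14 and 14 at 10 Gy, 12 and 10 with Si306 + 2 Gy, and 14 and 14 with Si306 + 10 Gy. Medians were -0.04, 0.05, 0.01 and -0.01. The 14 genes up regulated at 10 Gy include NDUFA4L2, which was well above background there in Cy5 alone. NDUFA4 is counted here by its name, although it is now placed in complex IV, and NDUFAF1 is an assembly factor and not a subunit.

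NDUFA5, a subunit of the matrix arm, had the largest rise of complex I after PT alone. Its arrays read 0.63 and 0.68 at 2 Gy and 0.95 and 0.92 at 10 Gy, which is 1.57-fold (adjusted p = 5.27e-08) and 1.91-fold (2.74e-09). The rise was larger at 10 Gy by 0.28 ± 0.05 (0.0019). Its further probe gave 0.02 and 0.28, so the rise at 2 Gy rests on 1 probe. With Si306 the probes had opposite signs, 0.41 and -0.10 with Si306 + 2 Gy and 0.34 and -0.38 with Si306 + 10 Gy, and no direction is given.

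NDUFV1, which binds NADH, was down regulated at 2 Gy (-0.19 and -0.21; adjusted p = 0.000337) and not past the threshold at 10 Gy (0.03 and -0.05; 0.785) or with Si306 + 2 Gy (0.02 and 0.00; 0.731). With Si306 + 10 Gy it read 0.48 and 0.49 (4.15e-07), the largest rise of complex I in that configuration. NDUFS8, an iron-sulfur subunit, had the lowest value of complex I at 2 Gy, with -0.37 and -0.49 (-0.43 ± 0.04, adjusted p = 3.57e-06), and read -0.12 and -0.08 at 10 Gy (0.0386). NDUFS1, the largest iron-sulfur subunit, read -0.18 and -0.23 at 2 Gy (0.00055), where its further probe gave 0.35, so that no direction is given.

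NDUFC2, an accessory subunit, had the lowest values of complex I with Si306, at -0.51 and -0.39 with Si306 + 2 Gy and -0.65 and -0.66 with Si306 + 10 Gy. Its further probe gave 0.66 and 0.86 in the same configurations, with adjusted p under 0.05 for both probes, so the direction of this gene is not settled, and with median centring probe 1 turned to 0.40 with Si306 + 2 Gy. NDUFA2, a small accessory subunit, read 0.49 and 0.41 with Si306 + 2 Gy and 0.48 and 0.46 with Si306 + 10 Gy (adjusted p = 8.11e-07 and 7.48e-07), and its further probe gave 0.33 and 0.35. NDUFB3 was the lowest of complex I at 10 Gy, with -0.36 and -0.27 (2.72e-05). NDUFB7 read -0.23 and -0.21 at 2 Gy and -0.17 and -0.25 at 10 Gy, and its probes differed in sign with Si306 + 2 Gy (0.14 and -0.16).

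Complex III passes electrons from ubiquinol to cytochrome c. Of its 8 genes, 3 were up and 3 down regulated at 2 Gy, 3 and 1 at 10 Gy, 5 and 0 with Si306 + 2 Gy, and 4 and 1 with Si306 + 10 Gy. Medians were -0.05, 0.04, 0.24 and 0.09.

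UQCRC1, a core protein of complex III, was up regulated in all 4 configurations. Its arrays read 0.22 and 0.17 at 2 Gy, 0.28 and 0.32 at 10 Gy, 0.39 and 0.37 with Si306 + 2 Gy and 0.36 and 0.41 with Si306 + 10 Gy, with adjusted p of 0.000431, 1.48e-05, 2.15e-06 and 2.25e-06. UQCRC2, the other core protein, was up regulated in 3 configurations, at 0.28 ± 0.03, 0.20 ± 0.03 and 0.26 ± 0.03, and read 0.07 and 0.06 with Si306 + 10 Gy (adjusted p = 0.107). A value of the same sign in every configuration cannot be told apart from a dye bias of its probe.

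UQCRB, a small subunit that binds ubiquinone, differed between the configurations. It read -0.29 and -0.27 at 2 Gy (adjusted p = 2.37e-05), 0.00 and 0.06 at 10 Gy (0.427), 0.36 on both arrays with Si306 + 2 Gy (2.58e-06) and 0.14 and 0.17 with Si306 + 10 Gy (0.00138). CYC1, the cytochrome c1 subunit, was down regulated at 2 Gy, at -0.22 and -0.20 (0.000245), and read -0.04 and -0.01 at 10 Gy (0.539). UQCR (now UQCR11) was the lowest of the complex at 10 Gy, at -0.12 and -0.09 (0.0363). UQCRFS1, the Rieske iron-sulfur protein, was the one down regulated gene with Si306 + 10 Gy, at -0.10 and -0.15 (0.0184), while its further probe gave 0.11 there and median centring turned it to 0.37.

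Complex IV, cytochrome c oxidase, contained the largest change of all members, that of COX6A2. Of its 16 tested genes, 3 were up and 8 down regulated at 2 Gy, 5 and 4 at 10 Gy, 8 and 5 with Si306 + 2 Gy, and 7 and 3 with Si306 + 10 Gy. Medians were -0.10, -0.02, 0.11 and 0.03. The 8 genes down regulated at 2 Gy include COX7B2, which was not well above background there, so that its call carries no level. COX4NB and COX7A2L are counted by their names, although COX4NB is a neighbour of COX4I1 in the genome and COX7A2L takes part in the joining of complexes.

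COX6A2 read 1.56 and 1.55 on the 2 arrays at 2 Gy and 2.21 and 2.17 at 10 Gy. This is a rise of 2.93-fold (adjusted p = 7.99e-11) and of 4.56-fold (3.04e-12), and the rise was larger at 10 Gy by 0.64 ± 0.05 (1.82e-05), a difference in which a constant dye bias cancels. When Si306 was added to 2 Gy it read -0.20 and -0.25 (-0.23 ± 0.03, 0.000103), and when it was added to 10 Gy it read 0.02 and 0.00 (0.01 ± 0.03, 0.734). The probe was well above background in both channels on all 8 arrays. COX6A2 was measured by 1 probe.

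COX6A1, the widely expressed counterpart of COX6A2, read -0.24 and -0.20 at 2 Gy (adjusted p = 0.000573) and -0.17 and -0.06 at 10 Gy (0.0283). Its further probe gave 0.08 and 0.22 after PT and 1.23 with Si306 + 10 Gy, where the brighter probe read -0.02 and -0.03, so its direction is not settled. Among the other tissue isoforms, COX4I2 and COX6B2 lay between -0.10 and 0.19 in all configurations. COX7B2 was not well above background in either channel of the 4 arrays of PT alone, and NDUFA4L2 was in the same state at 2 Gy and with Si306, so no fold change is given for them.

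COX7B, a small structural subunit, had the largest rise of complex IV with Si306. It read 0.61 and 0.62 with Si306 + 2 Gy (1.53-fold, adjusted p = 1.03e-07) and 0.53 and 0.49 with Si306 + 10 Gy (1.42-fold, 5e-07). After PT alone it read -0.30 and -0.33 at 2 Gy (1.94e-05) and 0.08 and -0.02 at 10 Gy (0.526). COX7A2L had -0.18 ± 0.05 and -0.31 ± 0.05 after PT and 0.47 ± 0.05 and 0.44 ± 0.05 with Si306. Its further probe gave values between -0.10 and 0.07.

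COX8A, the ubiquitous form of COX8, was the lowest of complex IV at 2 Gy, with -0.50 and -0.37 (-0.44 ± 0.04, adjusted p = 3.56e-06), and with Si306 + 2 Gy, with -0.22 and -0.28 (0.000187). It read -0.09 and -0.14 at 10 Gy (0.0227). COX5A read 0.31 and 0.30 at 2 Gy (2.48e-05), where its further probe gave -0.17, and -0.25 and -0.28 with Si306 + 10 Gy (6.8e-05), the lowest of the complex there, where the further probe gave 0.07. COX4I1, the main form of COX4, was up regulated with Si306 at 0.14 ± 0.03 and 0.10 ± 0.03, while another of its 3 probes gave -0.26 and -0.18. The directions of COX5A and COX4I1 are therefore not settled. With median centring, relative to all names, the falls given above for NDUFV1, NDUFS1, NDUFB3, NDUFB7, UQCRB, CYC1, UQCR, COX6A1, COX7A2L, COX7B and COX8A after PT alone turned, and so did those of COX5A and COX8A with Si306. The fall of NDUFS8 turned at 10 Gy, while at 2 Gy it was lost.

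**Figure D4:**
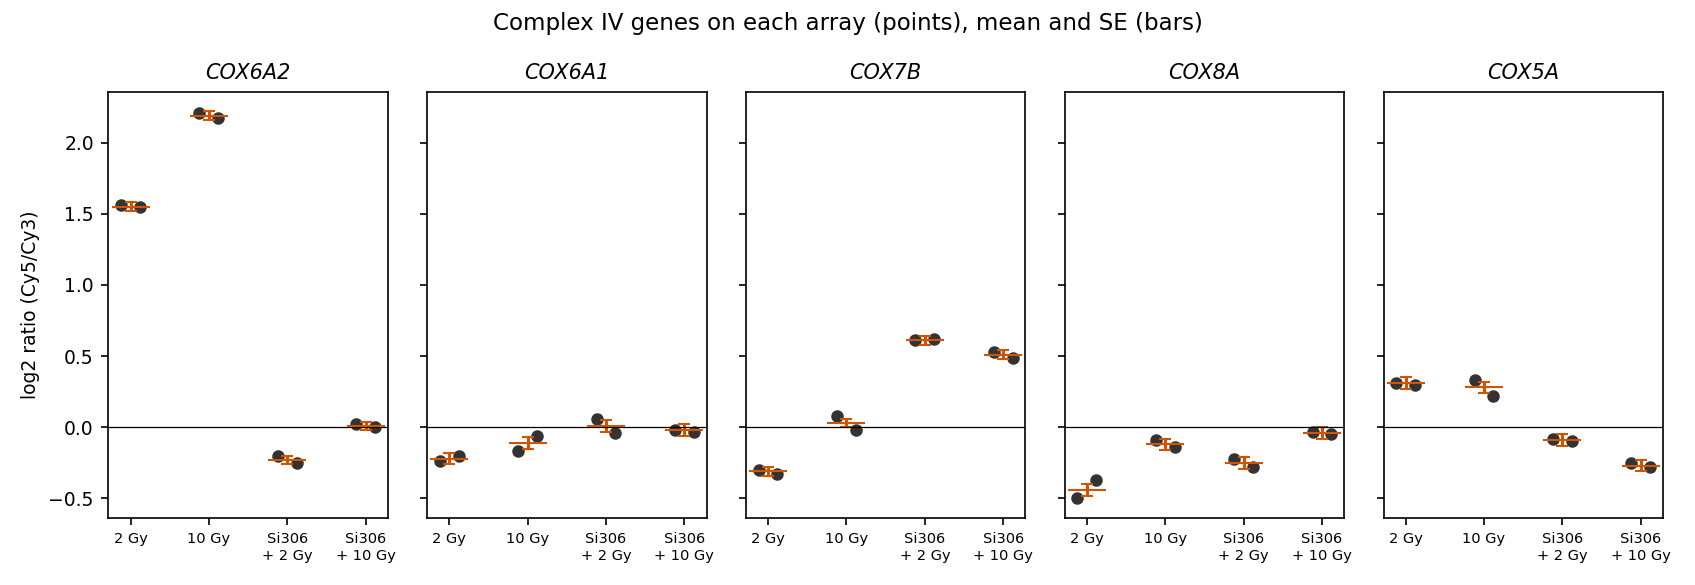
The log2 ratio of Cy5 to Cy3 (vertical axis) of 5 complex IV genes on each of the 2 arrays of a configuration (points), with mean and SE (bars). COX6A2 lies at 1.55 to 2.21 after PT alone (against untreated cells) and at -0.25 to 0.02 when Si306 was added (against PT alone). The other 4 genes lie between -0.50 and 0.62 (after loess, while COX6A1 and COX8A after PT, COX7B at 2 Gy and COX5A and COX8A with Si306 turn with median centring).

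Complex V is the ATP synthase. Of its 16 genes, 3 were up and 5 down regulated at 2 Gy, 7 and 3 at 10 Gy, 6 and 7 with Si306 + 2 Gy, and 6 and 9 with Si306 + 10 Gy. Medians were -0.03, 0.07, -0.04 and -0.14, and whether the configurations differed in these medians was not tested.

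ATP5J (now ATP5PF), the coupling factor 6 of the stalk, had the largest rise of complex V after PT. It read 0.37 and 0.38 at 2 Gy (adjusted p = 1.93e-06) and 0.66 and 0.67 at 10 Gy (2.16e-08). With Si306, against PT alone at the same dose, it read -0.19 and -0.22 and -0.25 and -0.26 (0.000123 and 2.7e-05). Its further probe gave 0.11 and 0.06 after PT, the latter not past the threshold (0.153), so the rise at 10 Gy rests on 1 probe. With Si306 the further probe gave -0.01 and 0.30, so the direction of ATP5J with Si306 is not settled. ATP5B (now ATP5F1B), the catalytic beta subunit, was down regulated at 2 Gy (-0.23 and -0.17; 0.000365) and with Si306 at both doses (-0.24 and -0.18, 0.00021; -0.33 on both arrays, 7.86e-06). ATP5A1 (now ATP5F1A), the alpha subunit, was up regulated at 10 Gy (0.13 and 0.21; 0.00107) and down regulated with Si306 (-0.09 and -0.10, 0.0242; -0.22 on both arrays, 0.000175). The alpha and beta subunits thus both fell with Si306 after loess, and with median centring they turned, to 0.69 and 0.36 with Si306 + 2 Gy and to 0.31 and 0.06 with Si306 + 10 Gy.

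ATP5C1 (now ATP5F1C), the gamma subunit of the rotor, did not pass the threshold in 3 configurations and read -0.06 and -0.12 with Si306 + 10 Gy (adjusted p = 0.0499). ATP5S (now DMAC2L), which is not a subunit in the strict sense, was the highest of the group with Si306, at 0.47 and 0.40 with Si306 + 2 Gy (1.01e-06) and 0.45 and 0.47 with Si306 + 10 Gy (8.4e-07), and its further probe gave 0.43 and 0.35. ATP5H (now ATP5PD) was lowest with Si306 + 2 Gy, at -0.30 and -0.42 (0.000953), and ATP5O (now ATP5PO) with Si306 + 10 Gy, at -0.37 and -0.40 (0.00213). At 2 Gy the arrays of ATP5O lay far apart, at -0.56 and -0.07. ATP5D (now ATP5F1D) was lowest at 10 Gy, at -0.20 and -0.35 (0.000227), while its further probe gave 0.25, and its brighter probe is GC-rich. With median centring, relative to all names, the falls of ATP5B (0.21), ATP5D (0.07) and ATP5O (0.14) at 2 Gy and of ATP5D (0.03) and ATP5S (0.04) at 10 Gy turned. With Si306 + 2 Gy those of ATP5H (0.56) and ATP5J (0.42) turned, and with Si306 + 10 Gy those of ATP5C1 (0.30), ATP5H (0.29), ATP5J (0.17) and ATP5O (0.21).

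Calls shared by both configurations with Si306 were counted. Of the 31 members up regulated with Si306 + 2 Gy, 24 (77.4%) were also up regulated with Si306 + 10 Gy, which is 77.4% of the 31 of that list too. Of the 26 down regulated with Si306 + 2 Gy, 23 (88.5%) were down regulated with Si306 + 10 Gy, where they made up 74.2% of 31. Over all 22931 names tested in both, the shared calls were 71% and 77.8% of the up regulated names and 73.7% and 75.7% of the down regulated names of the lower and the higher dose, and whether the members' shares differ from these was not tested. No member was called in opposite directions, as were 385 of all names. These 2 configurations used different control RNA, but the same slide, dyes and probes.

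The doses were compared directly, as the change at 10 Gy minus the change at 2 Gy. Without Si306, 20 of the 84 members (23.8%) were higher at 10 Gy and 3 (3.57%) lower, while over all names 9.83% were higher and 11.1% lower. The median difference was 0.08 for members and -0.01 for all names, and 61 members had a positive difference and 23 a negative one. The members higher at 10 Gy were found in complex I (7 of 40), complex III (2 of 8), complex IV (6 of 16) and complex V (5 of 16), and 0 of 4 genes of complex II differed. COX6A2 had the largest difference (0.64), followed by NDUFB1 (0.38 ± 0.05), an accessory subunit, COX6C (0.37 ± 0.05), COX7B (0.34 ± 0.05), NDUFS8 (0.33 ± 0.05), COX8A (0.32 ± 0.05) and UQCRB (0.31 ± 0.05), of which NDUFB1 and COX6C were picked after their values were seen. Several of these, such as UQCRB, COX7B and COX8A, were below 0 at 2 Gy and nearer to 0 at 10 Gy. Among the lower ones, NDUFB3 fell by 0.20 and COX4NB, also picked after its value was seen, by 0.19 relative to 2 Gy.

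This dose difference depended on the arrays and on the normalization. Without the arrays that held the disputed scans, which left 1 array for each dose, the members' median difference was 0.09, beside 0 for all names. With those scans kept by their label, 0 members and 0 of all names differed by limma and the members' median was 0.03. In that setting each dose held a scan of an array that most labels gave to the other dose. With median centring the median was -0.03 beside -0.01 for all names, and 5 members were higher and 5 lower, beside 4.93% and 11.4% of all names.

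With Si306 the doses were compared in the same way. Of the 84 members, 7 were higher at 10 Gy and 12 lower, beside 10.1% higher and 12.5% lower over all names, and the median was -0.05 against -0.01. These shares lay near the background, and median centring called 77 members in place of 19, where it also called 60.1% of all names in place of 22.5%. The members that were higher belonged to complexes I and IV, with NDUFV1 (0.47 ± 0.05, adjusted p = 7.93e-05), NDUFB9 (0.41 ± 0.05), NDUFS7 (0.38 ± 0.05), NDUFV3 (0.28 ± 0.06) and NDUFS8 (0.17 ± 0.05) in complex I and COX6A2 (0.24 ± 0.05) and COX8A (0.21 ± 0.05) in complex IV. With median centring, relative to all names, NDUFS8 (-0.08) and COX8A (-0.11) turned in this comparison. NDUFB9, NDUFS7 and NDUFV3 were picked after their values were seen, as were NDUFC1, NDUFB5 and UQCRQ below. The further probe of NDUFS7 gave 0.62, that of NDUFB9 gave -0.02 (adjusted p = 0.812), and those of NDUFV3 gave 0.01 and 0.09 (0.859 and 0.26), so the differences of NDUFB9 and NDUFV3 rest on 1 probe each. The members that were lower included NDUFC1 (-0.32 ± 0.05), NDUFB5 (-0.30 ± 0.07), SDHB, SDHD, UQCRB, UQCRC2 and UQCRQ. The count fell from 19 to between 6 and 11 when an array with Si306 was left out, and the share of all names called fell from 22.5% to between 10.6% and 14.6%.

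**Figure D5:**
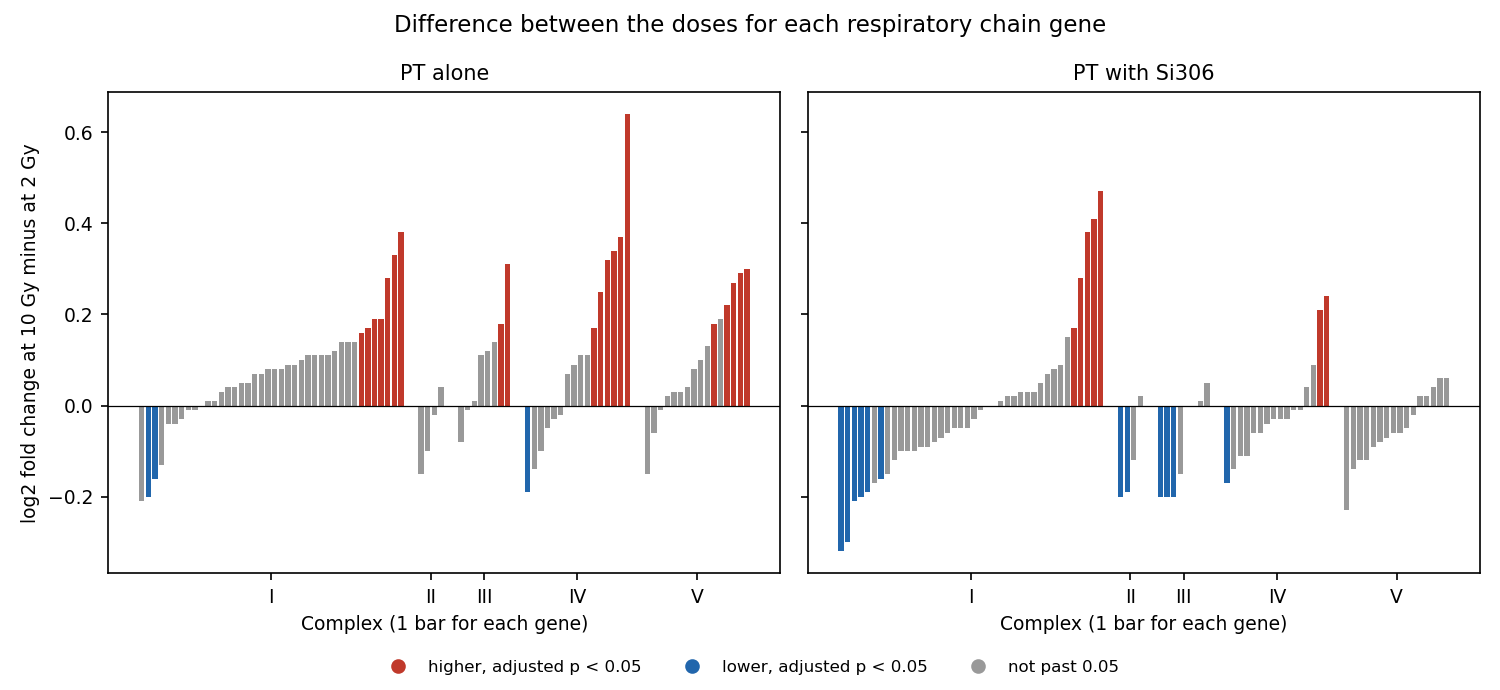
Each bar is 1 respiratory chain gene, with the difference between its log2 fold changes at 10 Gy and 2 Gy (vertical axis), grouped by complex, for PT alone (left) and with Si306 (right). For PT alone 61 of 84 bars point upwards and 20 of them pass adjusted p under 0.05, and with Si306 31 point upwards and 7 pass, after loess (with median centring the medians are -0.03 and -0.44).

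Genes that serve the chain without being part of it were read from lists. Over all names, 32.0% were up and 24.9% down regulated at 2 Gy, and 31.0% and 26.2% at 10 Gy. With Si306 + 2 Gy these shares were 38.5% and 27.8%, and with Si306 + 10 Gy 35.1% and 27.1%. Whether the shares of the lists differ from these was not tested. Of 22 assembly factors, 9 were up and 8 down regulated at 2 Gy, 8 and 5 at 10 Gy, 10 and 6 with Si306 + 2 Gy, and 10 and 6 with Si306 + 10 Gy. Of 17 genes of the citric acid cycle and pyruvate dehydrogenase, 6 and 4, 6 and 4, 7 and 6, and 5 and 5 were up and down regulated in the same order. CS, which starts the cycle, was down regulated with Si306 + 2 Gy alone, at -0.11 and -0.32 (adjusted p = 0.00362). Of 8 carriers and porins, 2 and 2, 3 and 1, 1 and 4, and 2 and 4 were called up and down, and none of the listed genes reached 2-fold.

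CYCS, which encodes the cytochrome c that links complexes III and IV, was up regulated after PT and down regulated with Si306. It read 0.22 and 0.23 at 2 Gy and 0.50 and 0.44 at 10 Gy (adjusted p = 0.000188 and 6.32e-07), and -0.34 and -0.33 with Si306 + 2 Gy and -0.32 and -0.40 with Si306 + 10 Gy (6.62e-06 and 4.89e-06). The whole list of carriers and inputs, CYCS included, went both ways, with 4 up and 3 down regulated of 9 at 2 Gy and 3 up and 5 down regulated with Si306 + 10 Gy. Over all names the shares were 32.0% and 24.9% at 2 Gy and 35.1% and 27.1% with Si306 + 10 Gy, and a difference was not tested.

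The regulators of mitochondrial genes changed in both directions too. Of 17, 7 were up and 5 down regulated at 2 Gy, 5 and 5 at 10 Gy, 5 and 6 with Si306 + 2 Gy, and 4 and 9 with Si306 + 10 Gy. Over all names the shares in the same order were 32.0% and 24.9%, 31.0% and 26.2%, 38.5% and 27.8%, and 35.1% and 27.1%. A difference from these was not tested. TFAM, which packages mitochondrial DNA and activates its transcription, read 0.35 and 0.38 at 2 Gy and 0.35 and 0.29 at 10 Gy (adjusted p = 3.74e-06 and 8.39e-06), and -0.13 and -0.11 with Si306 + 2 Gy and -0.20 and -0.19 with Si306 + 10 Gy (0.00805 and 0.000346). NRF1 and GABPA, whose motifs were searched above, did not pass the threshold after PT alone or with Si306 + 2 Gy, and read -0.10 and -0.26 (0.00275) and -0.21 on both arrays (0.00115) with Si306 + 10 Gy. PPARGC1A, the coactivator of mitochondrial biogenesis, read 0.10 ± 0.03 at 2 Gy (0.0243), -0.11 ± 0.03 at 10 Gy (0.0132), 0.21 ± 0.03 with Si306 + 2 Gy (0.000195) and 0.11 ± 0.03 with Si306 + 10 Gy (0.0117).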

How the data were processed

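RNA of U87 cells was hybridised to Agilent 44K 2-colour arrays, and each of the 24 deposited tables is the scanner output (Agilent Feature Extraction 9.5.3.1, per the file headers) of 1 scan. The authors deposited spot intensities for both channels and a log10 ratio of Cy5 to Cy3, and the series matrix held the same log10 ratio, rounded by the authors. The deposited values are written with decimal commas and were converted. Here the intensities were background corrected (normexp, offset 50), normalized by loess within each scan, and averaged over the spots of a probe and the scans of an array. The design foresaw the labelled replicates, but these were scans of 8 arrays, so arrays were fitted (4 residual degrees of freedom). Outlier spots and control spots were left out. Probes were tested where Cy3 or Cy5 was flagged as well above background on a share of 2/3 or more of a configuration's arrays, and the brightest probe stood for a gene name. Changes were tested with limma 3.58.1 in R 4.3.3, two-sided, with Benjamini-Hochberg adjustment over all names tested, after the code had been tested on simulated data. The prior had 6.56 degrees of freedom.

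Genes were named if they changed 2-fold, were highest or lowest of their complex among calls with 1 sign on both arrays, differed by at least 0.5 between doses, belonged to the core subunits listed, or had called probes of opposite sign. The values of 1 gene that this rule names are not reported here, and a few genes were named outside it after their values were seen. The members and lists were chosen with earlier results of these data known. Alternatives covered the background correction, normalization, probe filters, probe choice, GC content, scans, the replicate number as a block and each array left out.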

Additional observations from a re-analysis of the deposited data

Results flagged for a closer look

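Among the named members, a change that differed between the doses by the test of the difference itself (limma, adjusted p under 0.05) drew attention. For PT alone, the log2 change at 10 Gy minus that at 2 Gy was called for NDUFA5 (0.28), NDUFB3 (-0.20), NDUFS1 (0.17), NDUFS8 (0.33), NDUFV1 (0.19), CYC1 (0.18), UQCRB (0.31), COX6A2 (0.64), COX7B (0.34), COX8A (0.32), ATP5A1 (0.22) and ATP5J (0.29). With Si306, the same difference was called for NDUFC2 (-0.20), NDUFS8 (0.17), NDUFV1 (0.47), SDHB (-0.20), SDHD (-0.19), UQCRB (-0.20), UQCRC2 (-0.20), COX5A (-0.17), COX6A2 (0.24) and COX8A (0.21). NDUFV1 and COX6A2 were higher at 10 Gy in both, and so were NDUFS8 and COX8A after loess, which turned with Si306 under median centring (-0.08 and -0.11). UQCRB was higher for PT alone and lower with Si306. A further probe gave the opposite difference for NDUFS1 for PT alone (-0.20) and for NDUFC2 with Si306 (0.21), so the directions of both are not settled. The further probe of ATP5J gave -0.05 for PT alone (adjusted p = 0.49), so its difference rests on 1 probe.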

How the results depend on the processing

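Of the comparisons of the 120 calls of named members with an alternative setting, 2563 kept direction and call, 219 lost the call and 87 changed sign. The counts of called members were 54, 55, 57 and 62 in the 4 configurations, 23 for the dose difference and 19 for the dose difference with Si306. When 1 array was left out they ranged from 44 to 55, 41 to 57, 45 to 58 and 49 to 62, and from 15 to 23 and 6 to 21 for the dose differences, where a dose left with 1 array was assumed to vary like the others. Median centring in place of loess called 84 members at 2 Gy and 84 at 10 Gy, 10 in the dose difference and 77 in that with Si306 (85.4%, 82%, 16.3% and 60.1% of all names), and 11, 3, 56 and 15 members then changed 2-fold. The share of up regulated names among all calls moved from 56.2%, 54.2%, 58.1% and 56.5% to 69.4%, 70.1%, 70.7% and 73.1% in the configurations, and from 47% and 44.6% to 30.3% and 29.3% in the dose differences. With every probe on its own, 2, 2 and 1 values were 2-fold at 2 Gy, 10 Gy and Si306 + 10 Gy, and 35 and 31 differed between the doses. The dose difference held 0 members with the disputed scans kept by label, where that with Si306 held 5, and the latter held 12 with the log ratio of the scanner software and 12 with the series matrix. Treating scans as samples gave 55 and 52 for the dose differences, and with the replicate number as a block 50 and 45. For the configurations the block gave 68, 67, 69 and 69, against 72, 68, 67 and 69 without it. Scans with the same number correlated between -0.0834 and 0.0856 over 30 pairs, and 9 of 22 matched best with their own number. Whether the numbers hold a pairing is not settled by these values. Relative to the shift of all names, median centring changed the sign at 2 Gy ATP5B (0.21), ATP5D (0.07), ATP5O (0.14), COX6A1 (0.30), COX7A2L (0.23), COX7B (0.05), COX8A (0.05), CYC1 (0.20), NDUFB3 (0.29), NDUFB7 (0.20), NDUFS1 (0.20), NDUFS8 (0.00), NDUFV1 (0.19), SDHD (0.23), UQCR (0.19) and UQCRB (0.09), at 10 Gy ATP5D (0.03), ATP5S (0.04), COX6A1 (0.35), COX7A2L (0.02), COX8A (0.30), NDUFB3 (0.01), NDUFB7 (0.13), NDUFS8 (0.28), SDHB (0.13), SDHD (0.16) and UQCR (0.29), with Si306 + 2 Gy ATP5A1 (0.69), ATP5B (0.36), ATP5H (0.56), ATP5J (0.42), COX5A (0.47), COX8A (0.61), NDUFC2 (0.40), SDHA (0.09), SDHB (0.41) and SDHD (0.01), with Si306 + 10 Gy ATP5A1 (0.31), ATP5B (0.06), ATP5C1 (0.30), ATP5H (0.29), ATP5J (0.17), ATP5O (0.21), COX5A (0.11), NDUFS1 (0.31), SDHB (0.04) and UQCRFS1 (0.37), in the dose difference with Si306 COX8A (-0.11) and NDUFS8 (-0.08). A further probe had the opposite sign at 2 Gy COX5A (-0.17), COX6A1 (0.08), COX7A2L (0.03), NDUFB7 (0.07), NDUFS1 (0.35) and UQCR (0.06), at 10 Gy ATP5D (0.25), COX6A1 (0.22), NDUFB7 (0.06), SDHD (0.01) and UQCR (0.04), with Si306 + 2 Gy COX4I1 (-0.26), COX5A (0.22), NDUFA5 (-0.10), NDUFB7 (-0.16) and NDUFC2 (0.66), with Si306 + 10 Gy ATP5J (0.30), COX4I1 (-0.18), COX5A (0.07), NDUFA5 (-0.38), NDUFB7 (-0.10), NDUFC2 (0.86) and UQCRFS1 (0.11), in the dose difference ATP5J (-0.05) and NDUFS1 (-0.20), in the dose difference with Si306 NDUFC2 (0.21). The mean of a gene's probes changed the sign at 2 Gy NDUFS1 (0.07), at 10 Gy COX6A1 (0.05), with Si306 + 2 Gy COX5A (0.06), NDUFB7 (-0.01) and NDUFC2 (0.10), with Si306 + 10 Gy ATP5J (0.02), COX4I1 (-0.03), NDUFA5 (-0.02) and NDUFC2 (0.10), in the dose difference NDUFS1 (-0.01), in the dose difference with Si306 NDUFC2 (0.00), and leaving out GC-rich probes that of ATP5D at 10 Gy (0.25). The cause was not tested. The number of arrays limits the precision, and members not well above background have no reliable ratio.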
